A study of Mus musculus with 2 samples.

Results

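The Mesodermal Progenitor cells described here are the cells that carry this name in the authors' annotation, and they number 496 of 5678 annotated cells (8.74%) taken from E11.5 mouse embryos. Their transcripts were read from 4 cell suspensions, and the cells came to 131 from F0_8, 96 from F0_9, 128 from F1_1 and 141 from F1_mix. F0_8 and F0_9 were each a founder embryo, grown from an egg that had received the mRNA of a piggyBac transposase and a donor plasmid. F1_1 was 1 embryo of the following generation. Cells of separate F1 embryos were combined into F1_mix to imitate a mosaic, so that it is no single animal. Every suspension carried an EGFP transgene under CAG, a promoter active in most tissues, linked to a DNA barcode, and no embryo without the transgene was included. The suspensions were tagged with CellPlex oligos and run together as 1 droplet library with UMIs, and the study used them to follow the mosaicism of the transgene. The age of the embryos was the same by label, while their exact stage cannot be told apart from the generation with 2 suspensions in each.

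Mesenchyme at this age fills the limb buds, the body wall, the face and the space around the gut and the somites, and it supplies the precursors of cartilage, tendon, dermis and connective tissue. Prrx1 and Twist1 are homeodomain and bHLH transcription factors of loose mesenchyme, while Meox1 and Meox2 are homeodomain factors of the somites and of muscle and skeletal precursors. Cells that divide switch on transcripts in waves: replication genes and histones in S phase, and the machinery of the spindle, the centromere and cytokinesis in G2 and M phase.

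Each level below is the number of UMIs of a gene per 10000 gene UMIs, summed over the cells of a type in a suspension, with 95% Poisson intervals that cover counting error only. The 496 cells held 9582659 gene UMIs. A cell had a median of 18842 gene UMIs and 5223 detected genes, against 13392.5 UMIs in Gut Mesenchyme/Amniotic Mesoderm (674 cells), 11653.5 in Chondrocyte (296 cells) and 18369 in Myoblast/Cardiomyocyte (644 cells). The medians per suspension ran from 17005 in F0_8 to 20786.5 in F1_1. Mitochondrial transcripts made up a median of 2.29% and ribosomal protein transcripts 15.2%. The deposited doublet score had a median of 0.314 in these cells, above 0.263 in Gut Mesenchyme/Amniotic Mesoderm and 0.222 in Chondrocyte, and the part of doublets in the levels was not tested. None of the 6006 deposited barcodes was shared between suspensions (0 shared).

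The genes of the label were present in every suspension, but they set these cells apart only slightly. The summed level of Prrx1, Twist1, Meox1 and Meox2 was 12.6 per 10000 (12.2 to 12.7 over the suspensions), the highest of 12 cell types of usual depth, at 1.24 times Gut Mesenchyme/Amniotic Mesoderm and 1.32 times Chondrocyte. Prrx1 stood at 5.38, 5.26, 5.27 and 5.16 in F0_8, F0_9, F1_1 and F1_mix, above both of those types in 4 of 4 suspensions. Twist1 stood at 5.07, 5.94, 6.07 and 5.55, above Gut Mesenchyme/Amniotic Mesoderm in each suspension but above Chondrocyte in 3 of 4. Meox1 was at 0.314, 0.334, 0.292 and 0.392 and did not differ in a fixed direction from either type, and its pooled ratios were 0.972 and 0.997. Meox2 was at 1.46, 0.946, 1.07 and 1.62, above Gut Mesenchyme/Amniotic Mesoderm in 2 of 4. Prrx1 was detected in 404 of 496 cells (81.5%) and Twist1 in 454, and 379 cells held both. Prrx1 and Twist1 were detected in 74.0% and 78.3% of Gut Mesenchyme/Amniotic Mesoderm cells and in 68.6% and 82.4% of Chondrocyte cells. In CNS Neuron cells the shares were 7.33% and 3.01%. Each of these types had fewer UMIs per cell.

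Most defining markers of other cell types were low. The 4 cardiomyocyte markers summed to 0.00104 per 10000, with 3 of 4 at 0, and the liver markers summed to 0.00835, with 2 of 4 at 0. Endothelial markers summed to 0.0261, macrophage markers to 0.0167, neural progenitor markers to 0.0428, neural crest markers to 0.0877, skeletal myoblast markers to 0.145, epithelial markers to 0.205, erythroid markers to 0.259 and neuron markers to 0.504. The largest sum belonged to cartilage, with Sox9, Col2a1, Acan and Col9a1 at 4.18 to 6.93 per 10000, and the visceral factors Foxf1, Foxf2, Hand1 and Gata6 summed to 0.449 to 0.914. The cartilage sum was below that of Chondrocyte in 4 of 4 suspensions, at a pooled 0.812 times. The visceral sum was below that of Gut Mesenchyme/Amniotic Mesoderm in 3 of 4 (a pooled 0.783 times), but above it in F0_9, at 0.579 against 0.483.

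The share of Mesodermal Progenitor cells was lower in each founder than in each F1 suspension, but the exact permutation test of 2 against 2 suspensions cannot go below p = 0.333. They made up 8.19% of the annotated cells of F0_8 (exact 95% interval 6.89 to 9.65), 7.28% of F0_9 (5.94 to 8.82), 9.77% of F1_1 (8.22 to 11.51) and 9.72% of F1_mix (8.24 to 11.4). The difference of the means, founders minus F1, was -2.01 percentage points, at that smallest p (two-sided exact permutation test). Among the cells of the 3 types Mesodermal Progenitor, Gut Mesenchyme/Amniotic Mesoderm and Chondrocyte, the share was 27.4% and 27.5% in the founders and 45.6% and 39.4% in F1_1 and F1_mix.

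Genes of cell division were what set these cells apart from the other mesenchymal types. Because the cell types had been made by clustering these same genes, the comparison between types is a description with no test. Of 11923 genes with at least 50 UMIs over the 3 types, 1382 (11.6%) lay above both Gut Mesenchyme/Amniotic Mesoderm and Chondrocyte in all 4 suspensions and 1405 (11.8%) lay below both. The median log2 ratio over all these genes, with 0.1 added to each level, was -0.07 against Gut Mesenchyme/Amniotic Mesoderm and 0.03 against Chondrocyte. All 34 genes of a list for G2 and M phase were among the higher genes, with median log2 ratios of 3.05 and 2.79. Of 28 S phase genes 19 were higher and 1, Mcm2, was lower, with medians of 0.47 and 0.75. Replication-dependent histone genes, a list chosen after the levels were seen, were higher for 39 of 41, with medians of 1.26 and 1.21.

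**Figure D1:**
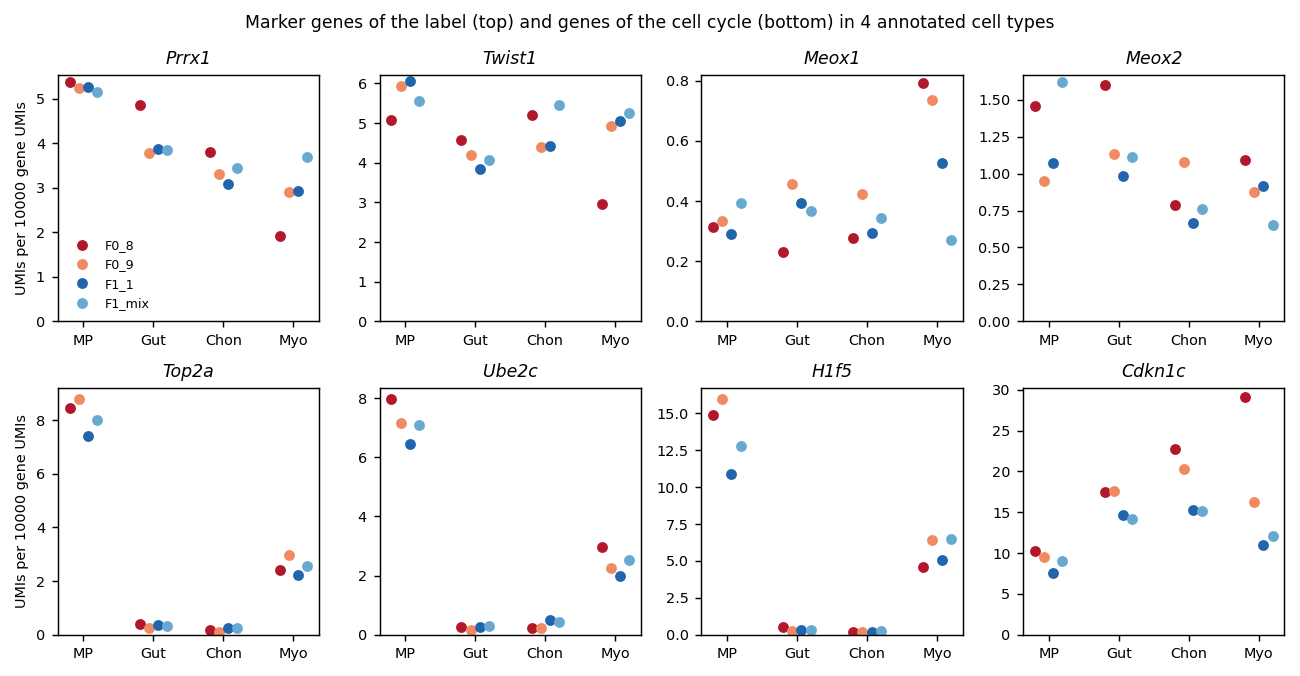
Levels in UMIs per 10000 gene UMIs (vertical axes, each from 0) of the 4 label genes Prrx1, Twist1, Meox1 and Meox2 (top) and of Top2a, Ube2c, H1f5 and Cdkn1c (bottom) in Mesodermal Progenitor (MP), Gut Mesenchyme/Amniotic Mesoderm (Gut), Chondrocyte (Chon) and Myoblast/Cardiomyocyte (Myo), with 1 point per suspension. The label genes overlap or nearly overlap between types, while Top2a lies between 7.40 and 8.77 in MP and at or below 0.405 in Gut and Chon.

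Top2a, the topoisomerase that untangles sister chromatids, stood at 8.44, 8.77, 7.40 and 8.01 per 10000 in F0_8, F0_9, F1_1 and F1_mix. The same suspensions held 0.405, 0.262, 0.380 and 0.326 in Gut Mesenchyme/Amniotic Mesoderm, and no value of one type came near the other. Ube2c, the ubiquitin-conjugating enzyme of the anaphase-promoting complex, stood at 7.96, 7.15, 6.46 and 7.08, against pooled levels of 0.252 in Gut Mesenchyme/Amniotic Mesoderm and 0.336 in Chondrocyte. The linker histone gene H1f5 had the widest gap by the naming rule, at 14.9, 15.9, 10.9 and 12.8, against pooled levels of 0.384 and 0.177. Its founder values both lay above its F1 values. Hmgb2, a chromatin protein that marks G2 cells, was the most abundant of the list at a pooled 21.0 against 3.48 and 4.36.

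Among the 15 genes with the largest gaps were the histone genes H1f5, H2ac8, Hist1h2ap and H1f1, and Top2a, Ube2c, Kif11, Nusap1, Prc1, Incenp, Cenpf, Aurkb, Sgo2a and Cdca2. Aurkb and Incenp encode the kinase and the scaffold of the chromosomal passenger complex. Aurkb was at a pooled 1.27, against 0.0320 in Gut Mesenchyme/Amniotic Mesoderm and 0.0199 in Chondrocyte. Incenp was at 1.85 against 0.0872 and 0.0911. Kif11 and Prc1 build and bundle spindle microtubules, and Sgo2a protects cohesion at the centromere. Prc1 was at 2.0, 2.35, 1.81 and 1.91 over the suspensions, and Sgo2a at 1.17, 1.07, 1.09 and 1.05, so that neither varied widely between suspensions. Mki67, the proliferation antigen, was at a pooled 4.29 against 0.292 and 0.268. Cdk1, the mitotic kinase, was at 2.64 against 0.221 and 0.282, and its partner Ccnb1 at 1.76 against 0.0685 and 0.114. With 0.1 added to each level, 4 genes of the list had the smallest log2 ratios to Gut Mesenchyme/Amniotic Mesoderm. They were Tmpo, Gtse1, Ckap2 and Ccnb2, at 0.77, 1.45, 1.95 and 1.99. Gtse1 ranked there through the added 0.1, since its levels were 0.195 against 0.00773.

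Promoters of 6 of these genes are shown because the G2 and M phase list shares short sequence elements near the start of transcription that the choice of the list did not use. Each stretch runs from 150 bases before to 30 bases after the annotated start, 5′ to 3′ on the strand of the gene, from the RefSeq annotation of GRCm38.p6. Capitals mark TTTGAA, the cell cycle homology region bound by the DREAM and MuvB complexes, or CCAAT, the element bound by NF-Y, on either strand (TTCAAA and ATTGG are their reverse complements). The positions are chr11:99024160-99024339, minus strand, for Top2a, chr2:164769779-164769958, plus strand, for Ube2c, chr4:118437314-118437493, minus strand, for Cdc20, chr10:69352883-69353062, minus strand, for Cdk1, chr9:70421525-70421704, minus strand, for Ccnb2, and chr8:57511693-57511872, plus strand, for Hmgb2.
Top2a: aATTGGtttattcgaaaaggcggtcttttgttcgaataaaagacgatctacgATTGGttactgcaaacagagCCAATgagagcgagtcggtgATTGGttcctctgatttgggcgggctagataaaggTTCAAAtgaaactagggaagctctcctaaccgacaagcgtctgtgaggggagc
Ube2c: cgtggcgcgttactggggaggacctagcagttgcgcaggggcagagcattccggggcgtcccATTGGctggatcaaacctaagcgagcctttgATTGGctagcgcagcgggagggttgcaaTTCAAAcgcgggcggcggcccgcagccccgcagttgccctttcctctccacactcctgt
Cdc20: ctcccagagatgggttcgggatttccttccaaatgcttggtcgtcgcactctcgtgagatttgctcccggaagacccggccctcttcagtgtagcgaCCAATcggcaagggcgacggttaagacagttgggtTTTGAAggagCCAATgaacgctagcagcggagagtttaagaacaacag
Cdk1: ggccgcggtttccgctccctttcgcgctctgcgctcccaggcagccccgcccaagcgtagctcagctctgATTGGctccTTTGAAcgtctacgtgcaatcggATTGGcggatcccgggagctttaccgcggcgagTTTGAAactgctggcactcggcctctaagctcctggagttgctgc
Ccnb2: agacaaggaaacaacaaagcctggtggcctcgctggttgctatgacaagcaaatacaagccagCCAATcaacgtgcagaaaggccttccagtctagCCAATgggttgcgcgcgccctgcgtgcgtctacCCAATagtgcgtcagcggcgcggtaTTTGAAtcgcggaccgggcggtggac
Hmgb2: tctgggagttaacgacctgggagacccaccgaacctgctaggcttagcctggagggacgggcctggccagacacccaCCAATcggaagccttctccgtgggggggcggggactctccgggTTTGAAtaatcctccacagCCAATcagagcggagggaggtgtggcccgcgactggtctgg

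Every one of the 6 stretches held TTTGAA at least once and CCAAT at least 2 times, and they were picked for that. Over the list, 32 of 34 genes had a promoter in the reference, with Aurkb and Tpx2 unmatched. TTTGAA occurred in 19 of the 32 (59.4%), against 9.79% of 16802 genes of the deposited matrices that had a promoter of the same length. In the S phase list it occurred in 4 of 22 (18.2%), while CCAAT occurred in 63.6% of that list and 2 or more copies in 40.9%. CCAAT occurred in 24 of the 32 (75.0%) against 32.3% of all genes, and 2 or more copies in 19 (59.4%) against 9.46%. Both elements were present in 15 (46.9%) against 3.12% of all genes and 9.09% of the S phase list. Of the TTTGAA matches, 17 in 16 genes began between 30 bases before and 21 bases after the start. A match describes these letters and not a bound site, and some of these genes carried no match, such as Birc5, Nusap1 and Plk1 for TTTGAA.

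The summed level of the 34 G2 and M phase genes was 105.4, 102.5, 95.4 and 98.9 per 10000 in F0_8, F0_9, F1_1 and F1_mix. In Gut Mesenchyme/Amniotic Mesoderm it ran from 8.98 to 13.3 and in Chondrocyte from 10.6 to 18.6, so that the pooled level of Mesodermal Progenitor cells was 9.06 and 7.06 times theirs. It was also the highest of the 12 types of usual depth, with Neuronal Progenitor at 93.5, Erythroblast at 77.6 and Myoblast/Cardiomyocyte at 45.4. The S phase sum was less distinct, at 38.9 to 40.6, below Neuronal Progenitor (pooled 46.9) and Erythroblast (49.2) in 4 of 4 suspensions. It was below Myoblast/Cardiomyocyte (45.1) in 3 of 4 but not in F0_8, at 38.9 against 37.8. Histone transcripts summed to 43.0, above Neuronal Progenitor at 32.8 and Erythroblast at 28.8.

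The high level was spread over nearly all the cells and did not come from a few. Each cell was thinned to 5000 gene UMIs so that depth was equal, which left out 1 Mesodermal Progenitor cell. The median cell then held 45 UMIs of the 34 genes, with a 10th percentile of 21 and a 90th of 86.6, and 0 of 495 cells held none. In Gut Mesenchyme/Amniotic Mesoderm the median was 4 and the 95th percentile 16. Of the 495 Mesodermal Progenitor cells 474 (95.8%, exact 95% interval 93.6 to 97.4) exceeded that 95th percentile, as did 33 of 294 Chondrocyte cells (11.2%) and 340 of 640 Myoblast/Cardiomyocyte cells (53.1%). Medians within the suspensions were 47.5, 43.5, 47 and 42 UMIs. Top2a had a UMI in 475 of 496 cells (95.8%), or 86.9% after thinning. CNS Neuron, a type that should lack it, had Top2a in 9.02% of cells at a median depth of 10898.5 UMIs, or 5.24% after thinning. Mki67 was detected in 97.6% of Mesodermal Progenitor cells and 8.27% of CNS Neuron cells.

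**Figure D2:**
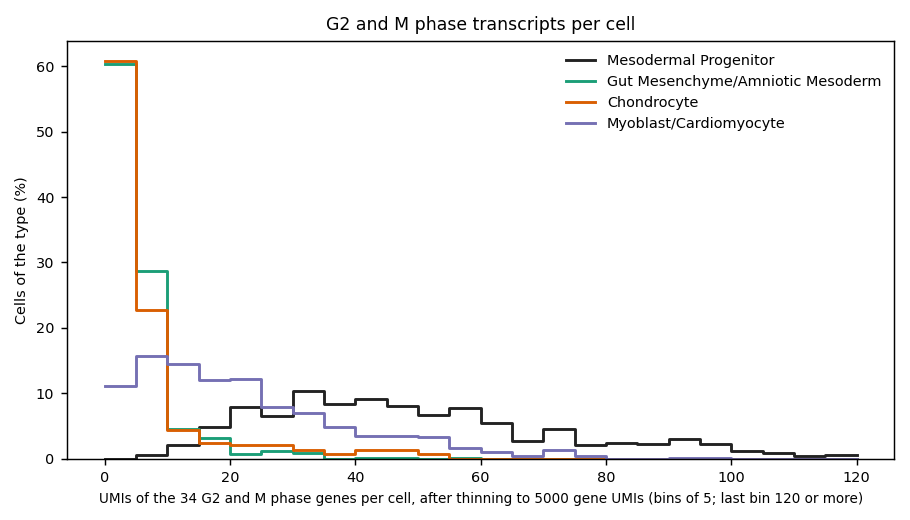
Distribution over cells of the UMIs of 34 G2 and M phase genes after thinning each cell to 5000 gene UMIs (horizontal axis, bins of 5) as a percent of the cells of the type (vertical axis), for 4 cell types. Mesodermal Progenitor cells are centred on a median of 45 with no cell at 0, Gut Mesenchyme/Amniotic Mesoderm on 4 and Chondrocyte on 3, and Myoblast/Cardiomyocyte spans both ranges.

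Within the 496 cells the cycle genes varied between cells. Across cells the S phase and the G2 and M phase levels ran in opposite directions (Spearman's rho -0.74, Pearson's r -0.71), and the histone level ran with S phase (0.50 and 0.43). These cells share a library and their depth, and the lists were chosen as cycle genes, so the values are a description. Cells were ordered by the summed level of 8 late mitotic genes (Ccnb1, Cdc20, Plk1, Aurka, Cenpe, Cenpf, Hmmr and Ube2c) and split into 3 bins of 165, 165 and 166 cells, each of which held between 32 and 50 cells of every suspension. From the lowest to the highest bin the S phase sum was 58.9, 37.3 and 24.4 per 10000, and the G2 and M phase sum 53.7, 90.5 and 150.4. The 8 genes are part of that sum, so its direction was fixed by the ordering. The other 26 genes of the list summed to 48.6, 74.8 and 106.7, a description chosen after the values were seen, since they belong to the same class. Pcna, the sliding clamp of replication, was at 3.77, 1.89 and 0.692, and Rrm2, a subunit of ribonucleotide reductase, at 3.89, 2.44 and 1.11. Cdc6, which licenses origins, was at 0.461, 0.106 and 0.0613. H1f5 was at 18.3, 15 and 7.48. Even the lowest bin, at 53.7, lay above the 11.1 of Gut Mesenchyme/Amniotic Mesoderm. Of the label genes only Prrx1 and Twist1 were read by bin. Prrx1 varied little, at 5.36, 5.23 and 5.2, and Twist1 had no steady direction, at 4.9, 6.37 and 5.67.

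Regulators of the cycle other than these lists were mixed. Ccnd1, a G1 cyclin, was at 1.62, 1.95, 1.63 and 1.89 per 10000, below Gut Mesenchyme/Amniotic Mesoderm in each suspension but above Chondrocyte in 2 of 4. Ccnd2 was at a pooled 3.47 against 5.17 and 3.44. Ccna2, the cyclin of S and G2 phase, was at 1.56 against 0.0861 and 0.290, while Ccne1 was nearly level at 0.586 against 0.489 and 0.396. Among the inhibitors Cdkn1c, an imprinted gene whose product blocks cyclin-dependent kinases, was among the 8 genes with the lowest values by the naming rule. It stood at 10.3, 9.5, 7.57 and 8.99, against 17.4, 17.6, 14.7 and 14.1 in Gut Mesenchyme/Amniotic Mesoderm and 22.8, 20.2, 15.3 and 15.1 in Chondrocyte. No value of Mesodermal Progenitor cells overlapped with those of either other type. Cdkn1b was instead higher, at a pooled 0.396 against 0.254 and 0.216, and Cdkn1a was near the limit of detection at 0.0146. Mxd4, an antagonist of Myc, led the lower genes at 0.393, 0.406, 0.387 and 0.424 against pooled levels of 1.19 and 1.33. The other lower genes were Igfbp5, Adamts12, Tmem176b, Maged2, Sfrp1 and Egfr. Igfbp5, which binds insulin-like growth factors, was at 1.88 against 4.41 and 3.85, and the receptor gene Egfr at 0.231 against 0.505 and 0.606.

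Genes of the extracellular matrix were lower as a group. Of 26 genes for collagens and other matrix proteins 13 were below both types in 4 of 4 suspensions, against 11.8% of all genes, and none was above both. Their median log2 ratios were -0.35 against Gut Mesenchyme/Amniotic Mesoderm and -0.84 against Chondrocyte. The sum of the list was 66.2 to 69.3 per 10000, against 85.7 and 113.5 pooled in those types, and above Myoblast/Cardiomyocyte at 53.2. Sparc, a collagen-binding glycoprotein, was at 2.74, 2.27, 2.57 and 1.90, against pooled levels of 3.86 and 8.83. Col1a2 and Col3a1, the fibrillar collagens of connective tissue, were at 3.46 against 4.86 and 7.83, and at 4.42 against 5.36 and 10.8. The growth factor gene Ptn was at 11.7 against 17.3 and 15.

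Of 15 cartilage genes 5 were below both types, against 11.8% of all genes, and none above (medians -0.69 and -0.51). Their sum was 17.5, 14.9, 10.9 and 12.8 per 10000 in F0_8, F0_9, F1_1 and F1_mix, a pooled 0.605 times Gut Mesenchyme/Amniotic Mesoderm. Against Chondrocyte, at 19, 16.7, 8.67 and 11.6, the sum was lower in both founders and higher in both F1 suspensions, or 0.969 times pooled. Col2a1, the cartilage collagen, was at 3.05, 2.39, 1.63 and 2.06 per 10000, against 3.27 and 2.78 pooled. Hapln1, which links aggrecan to hyaluronan, was at 0.0616 against 0.181 and 0.376. Read against the same 11.8%, 7 of 14 imprinted genes were lower and none was higher (medians -0.42 and -0.22), among them Cdkn1c and Dlk1, a Notch-like ligand of progenitors, at 2.17 against 3.69 and 4.75. Of 15 genes of the retinoic acid pathway 6 were lower, among them the synthesis gene Aldh1a2 at 0.401 against 0.685 and 0.977. The degrading enzyme gene Cyp26b1 was the exception, at 0.369 against 0.280 and 0.0826. Vim, the mesenchymal intermediate filament gene, was at 3.99 against 5.21 and 11.4, and the chemokine gene Cxcl12 at 1.05 against 1.72 and 2.71. Of 13 immediate early and heat shock genes 6 immediate early genes were lower, such as Jun at 2.83 against 4.03 and 4.64, while Hspa8, Hsp90aa1 and Dnajb1 were higher. The median of that list was -0.27 against Gut Mesenchyme/Amniotic Mesoderm while its sum was 1.15 times as high. These differences between types moved together with depth per cell and with the doublet score given above, and the part of either was not tested.

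**Figure D3:**
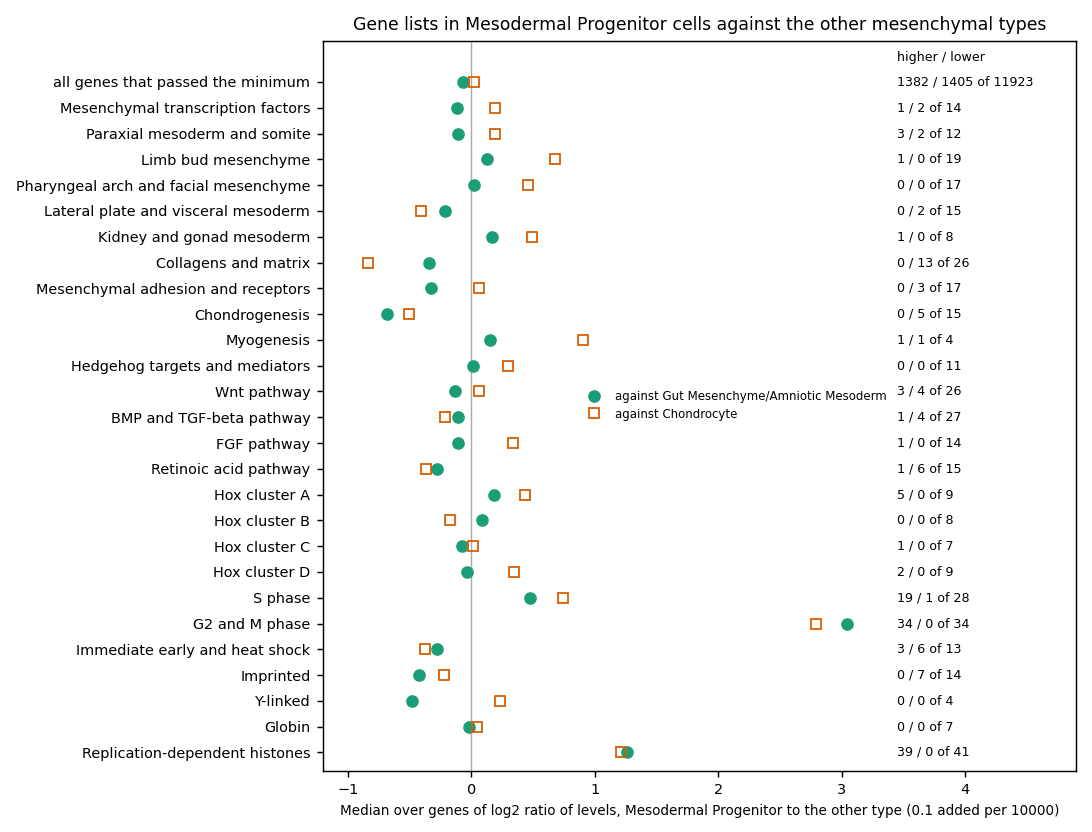
Median over the genes of each list of the log2 ratio of levels, with 0.1 added per 10000 (horizontal axis), of Mesodermal Progenitor to Gut Mesenchyme/Amniotic Mesoderm (circles) and to Chondrocyte (squares), with the numbers on the right counting the genes above or below both types in 4 of 4 suspensions, of those that passed the minimum. G2 and M phase stands apart at 3.05 and 2.79, and Chondrogenesis is lowest against Gut Mesenchyme/Amniotic Mesoderm at -0.69.

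Genes that mark position along the body varied by list, and limb, HoxA and HoxD genes had medians above Chondrocyte. Of 19 limb bud genes 1 was above both types, Lhx9, and none below (medians 0.12 and 0.68). The sum of the limb list was nevertheless below that of Gut Mesenchyme/Amniotic Mesoderm, at 0.879 times, so that its median and its sum differed in sign. Lhx9, a LIM homeodomain factor of the limb bud rim, was at 0.506, 0.930, 0.432 and 0.525, against 0.318 and 0.0541 pooled. Of 9 HoxA genes 5 were above both types, Hoxa2, Hoxa9, Hoxa10, Hoxa11 and Hoxa13, as were 2 of 9 HoxD genes, Hoxd11 and Hoxd13, 1 of 7 HoxC genes and 0 of 8 HoxB genes. The median log2 ratios against Gut Mesenchyme/Amniotic Mesoderm and Chondrocyte were 0.18 and 0.43 for HoxA, 0.09 and -0.17 for HoxB, -0.07 and 0.01 for HoxC and -0.04 and 0.35 for HoxD. The sums of HoxC, at 0.982 times Chondrocyte, and HoxD, at 1.22 times Gut Mesenchyme/Amniotic Mesoderm, differed in sign from these medians. Of 15 genes of the lateral plate and visceral mesoderm 2 were below both types and none above (medians -0.21 and -0.41), and their sum was 0.808 and 0.667 times those of the 2 types. Hoxa10, which patterns the limb and the posterior trunk, was at 1.47, 1.46, 0.887 and 1.06, against 0.952 and 0.327 pooled. Of 12 paraxial genes 3, Pax3, Tcf15 and Uncx, were above both types and 2, Foxc1 and Foxc2, below, against 11.6% and 11.8% of all genes. Pax3, a factor of the dermomyotome, varied from 0.349 in F1_1 to 0.925 in F0_8. Lef1, a mediator of Wnt signalling, was at a pooled 1.55 against 1.05 and 0.510.

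Cells with genes of different body regions were mixed within the annotation. Cells were grouped by detected UMIs of Tbx5, the forelimb T-box gene, and of Tbx4 and Pitx1, genes of the hindlimb. Other groups held Meox1, or Dlx5 or Dlx6, genes of the facial arches and the limb rim. A detected gene does not fix where a cell came from, and the origin was not tested. Tbx5 without Tbx4 or Pitx1 was found in 79 cells (15.9%), Tbx4 or Pitx1 without Tbx5 in 95 (19.2%) and Tbx5 together with either in 24 (4.84%). Meox1 was found in 100 cells (20.2%) and Dlx5 or Dlx6 in 67 (13.5%), groups that can overlap with the others, and 188 cells (37.9%) held none of these genes. After thinning to 5000 UMIs the shares were 10.9%, 14.7%, 1.41%, 10.9%, 9.09% and 56.4%. In CNS Neuron cells the share with a UMI was 0.376% for Tbx5, 0 of 532 for Tbx4 (which allows up to 0.564%), 1.13% for Pitx1 and 0.752% for Meox1, at a median depth of 10898.5 against 18842. Dlx5, Dlx6 and Pitx1 were also found outside mesenchyme. Dlx5 and Dlx6 had a UMI in 13.1% and 6.65% of Mesodermal Progenitor cells, and in 6.77% and 4.32% of CNS Neuron cells. In Epithelial Cell cells (median depth 16938) they were found in 20.5% and 11.9%. Pitx1 was found in 33.1% of Epithelial Cell cells, above its 18.3% in Mesodermal Progenitor cells. Every group was found in every suspension, and the smallest was the group with Tbx5 and Tbx4 or Pitx1, with 10, 5, 4 and 5 cells. Gut Mesenchyme/Amniotic Mesoderm held similar shares, with 15.1% for the Tbx5 group, 16.9% for the Tbx4 or Pitx1 group and 19.3% with Meox1, and Chondrocyte held 6.76%, 5.74% and 15.9%. Of 83 cells with Tbx4, 55 also held Pitx1 (66.3%, against 18.3% of all cells), whereas of 103 cells with Tbx5, 11 held Pitx1 (10.7%). Tbx5 and Tbx4 did not show that separation, since 21 of the 103 cells with Tbx5 held Tbx4 (20.4%, against 16.7% of all cells).

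Several Hox and limb genes were highest in the groups with Tbx5, Tbx4 or Pitx1. Hoxa10 was at 2.64 per 10000 in the Tbx5 group (95% interval 2.38 to 2.91) and at 2.06 in the Tbx4 or Pitx1 group, against 0.968 in the Meox1 group and 0.475 in cells with none of the genes. Hoxd13, the most distal HoxD gene, was at 0.853 in the Tbx5 group and 0.369 in the Tbx4 or Pitx1 group. The Dlx5 or Dlx6 group given below lay between them. In the Meox1 group Hoxd13 was at 0.0151 and rested on 3 UMIs. Shox2, a factor of the proximal limb skeleton, was at 2.46 and 1.97 against 0.502 with Meox1. Hoxc10, a gene of the hindlimb level, separated the Tbx4 or Pitx1 group from the Tbx5 group in all suspensions. It stood at 0.956, 0.665, 0.886 and 0.877 in the Tbx4 or Pitx1 group, and at 0.0856, 0.0308, 0 and 0 in the Tbx5 group, where it rested on 4 UMIs in all (pooled 0.0273, and 0.00897 without F0_8). It was not particular to cells with Tbx4 or Pitx1, since the Meox1 group held 0.823 and the cells with none of the genes 0.353.

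In the Meox1 group some genes of the somite and the sclerotome were at their highest and others were not. Pax1, a sclerotome factor, was at 1.84, 1.53, 0.976 and 1.76 per 10000 in this group, against 0.109 pooled in the Tbx5 group. Uncx was at 0.858 and Tcf15 at 0.838, against 0.128 and 0.259 in cells with none of the genes, and Scx, a factor of tendon precursors, at 1.61 against 0.378. The 0.128 of Uncx in cells with none of the genes was 0.0725 without F0_9. Pax3 was lower with Meox1, at 0.356, than in cells with none of the genes, at 0.944, or with Tbx4 or Pitx1, at 0.847. Pax9 was at 0.522, near the 0.553 of the Tbx5 group, which was 0.162 without F0_8. Hoxc8, a gene of the thoracic level, was at 2.58, 1.41, 0.472 and 0.401 with Meox1 in F0_8, F0_9, F1_1 and F1_mix, or 0.973 pooled and 0.628 without F0_8, and it had no UMI in the Dlx group, which allows up to 0.0219. Twist1 and Prrx1 were lowest here among the groups, at 3.51 and 2.79. Of the 100 cells with Meox1, 53 held Tcf15 (53%, against 25.2% of all cells).

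The Dlx5 or Dlx6 group combined facial and distal limb genes. Msx1, a factor of the facial arches and the limb tip, was at 6.19, 2.41, 4.27 and 4.88 per 10000, above the 1.23 of the cells with none of the genes. Barx1, a gene of facial mesenchyme, was at 1.26 and Hoxa2, the Hox gene of the second arch, at 0.598. Lhx9 was at 1.71, 3.01, 0.825 and 0.666 in F0_8, F0_9, F1_1 and F1_mix, or 1.61 pooled and 1.0 without F0_9. Hoxd13 was at 1.44 in F0_9 but at 0 in F1_1 and F1_mix, and its pooled 0.459 became 0.0314 without F0_9. Cells with none of the genes had Alx1, a factor of frontal facial mesenchyme, at 1.06 and Foxd1 at 2.06. Alx1 and Hoxa10 were seldom found together, since 12 of 96 cells with Alx1 held Hoxa10 (12.5%, against 38.1% of all cells). The G2 and M phase sum was high in all of these groups, from 96.7 in the Dlx group to 110.2 in the cells with both Tbx5 and Tbx4 or Pitx1. Levels between groups are a description, since the groups were made by genes measured in the same cells.

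**Figure D4:**
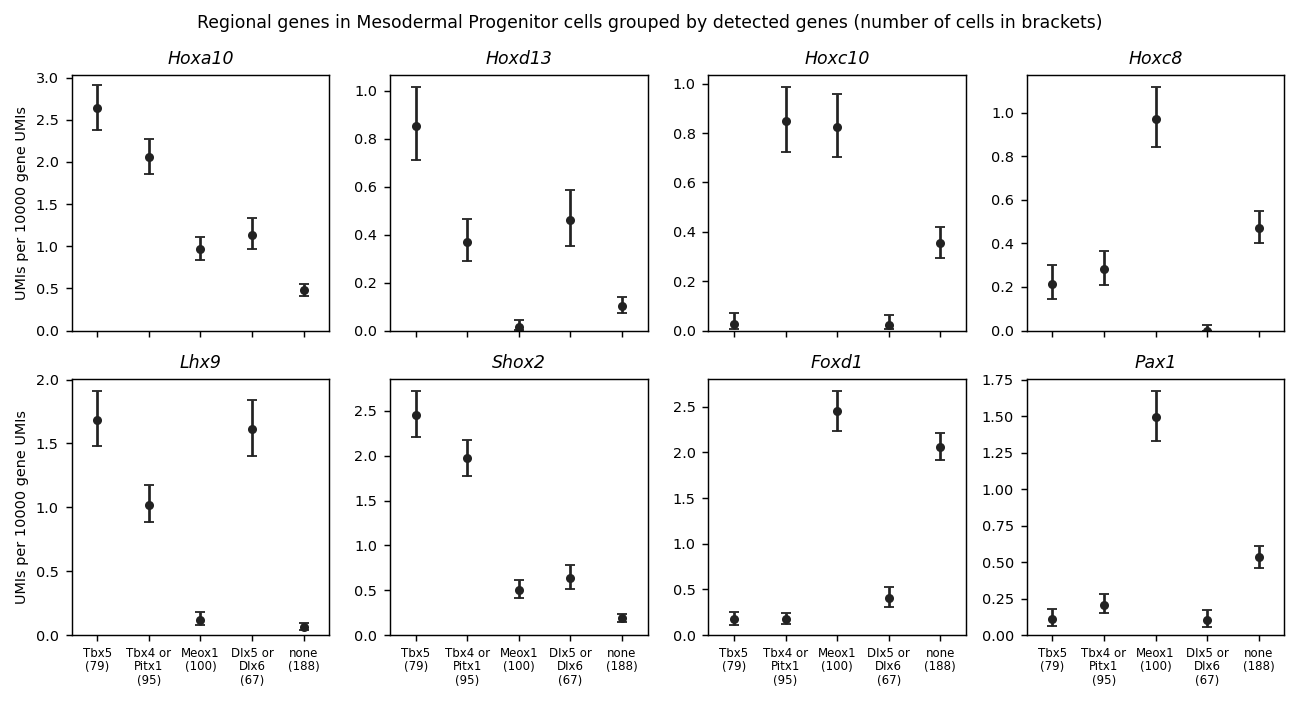
Levels in UMIs per 10000 gene UMIs (vertical axes) of 8 regional genes in Mesodermal Progenitor cells grouped by detected genes (horizontal axis, with the number of cells), pooled over suspensions, with 95% Poisson intervals for counting error only. Hoxa10 and Shox2 are highest in the groups with Tbx5 and with Tbx4 or Pitx1 (2.64 and 2.06, and 2.46 and 1.97). Hoxc10 is at 0.847 with Tbx4 or Pitx1 and 0.0273 with Tbx5, and Pax1 is at 1.5 with Meox1.

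Which type lay nearest in the whole transcriptome depended on the measure. Over 10382 genes the median absolute log2 ratio was 0.174 to Gut Mesenchyme/Amniotic Mesoderm, 0.211 to Myoblast/Cardiomyocyte, 0.216 to Neuronal Progenitor and 0.277 to Chondrocyte. Leaving out 92 cycle genes of the lists changed the first value to 0.172. So few of 10382 genes can hardly move a median, and division genes outside the lists stayed in. Genes at least 2-fold higher than in Gut Mesenchyme/Amniotic Mesoderm in each of the 4 suspensions numbered 202, and genes at least 2-fold lower 4. Of the 202, 59 were in the cycle lists, and among the leading ones outside them were Prc1, Incenp, Ckap2l and Spc25, which also act in division. Against Myoblast/Cardiomyocyte fewer genes were at least 2-fold higher (73) and more were 2-fold lower (16), and the correlation of log levels across genes was higher (Pearson's r 0.963, against 0.946 for Gut Mesenchyme/Amniotic Mesoderm), as a description across genes that are not replicates.

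A clustering that the authors deposited from before RECODE, a noise reduction step, placed 457 of the 496 cells (92.1%) in a cluster numbered 1, and 34 in cluster 0. Cluster 1 also held 309 of 644 Myoblast/Cardiomyocyte cells (48.0%) but only 15 of 674 Gut Mesenchyme/Amniotic Mesoderm and 8 of 296 Chondrocyte cells, of which cluster 0 held 653 and 286. The G2 and M phase sum was 102.7 per 10000 in Mesodermal Progenitor cells of cluster 1 and 57.2 in those of cluster 0. In Myoblast/Cardiomyocyte it was 61.2 in cluster 1 and 22.2 in cluster 0, and Prrx1 and Twist1 were present in those cells at 3.93 and 5.96 in cluster 1.

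Every Mesodermal Progenitor cell held at least 1 UMI of EGFP (0 cells at 0), and the level of EGFP followed the suspension. Every suspension carried EGFP, all were run together, and the counts were not corrected for transcripts from outside the cell. No embryo without the transgene was included to give a background level. Detection therefore does not show that each cell carried or expressed the transgene, which was not tested. The EGFP level was 10.7 per 10000 in F0_8 (95% Poisson interval 10.3 to 11.2), 9.59 in F0_9 (9.14 to 10.1), 24.2 in F1_1 (23.6 to 24.8) and 9.45 in F1_mix (9.09 to 9.81). F1_1 was thus the 1 suspension that stood apart, and the founders did not lie outside the range of the F1 suspensions. The spread between cells was widest in F0_9, where the 90th percentile was 7.77 times the 10th and the overdispersion, the squared coefficient of variation beyond counting, was 0.675. The overdispersion was 0.220 in F0_8, 0.173 in F1_mix and 0.134 in F1_1. Gut Mesenchyme/Amniotic Mesoderm had values of 0.174, 0.620, 0.135 and 0.193 in the same order of suspensions as for the levels above, with F0_9 again the widest. The suspensions differ in their integrations by design, so no test was made.

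Founders and F1 were compared within Mesodermal Progenitor cells on the summed counts of each suspension. Some cartilage, Hox and limb genes were higher in the founders, and Nnat, Crabp1, Nr2f1, Meis genes and Wt1 were lower. Of 28 S phase and 34 G2 and M phase genes tested 0 passed, a share near that over all genes. Of 10928 genes tested, 117 (1.07%) passed edgeR's quasi-likelihood test at a Benjamini-Hochberg adjusted p under 0.05, 79 higher (0.723%) and 38 lower (0.348%) in founders. The values of founders and F1 did not overlap for 4370 genes (40%), so that separate groups in a called gene add nothing to its test. The count rested on single suspensions: it was 37 without F0_8, 104 without F0_9, 209 without F1_1 and 325 without F1_mix, and 22, 57, 98 and 108 of the 117 genes passed in these fits. Each fit kept the direction of all 117. This adds little, since leaving out 1 suspension cannot reverse a gene whose founder and F1 values do not overlap. Of the 43 genes named below by rule, 30 did not pass without F0_8, 14 without F0_9, 22 with the 3 mesenchymal types fitted together and 21 with DESeq2's Wald test. With 2 suspensions a generation and mixed embryos in F1_mix, the p-values measure the spread between these suspensions only. Y-linked transcripts were at 2.52, 0, 0.0190 and 1.40 per 10000 in F0_8, F0_9, F1_1 and F1_mix, so that sex varied within both generations by this measure.

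**Figure D5:**
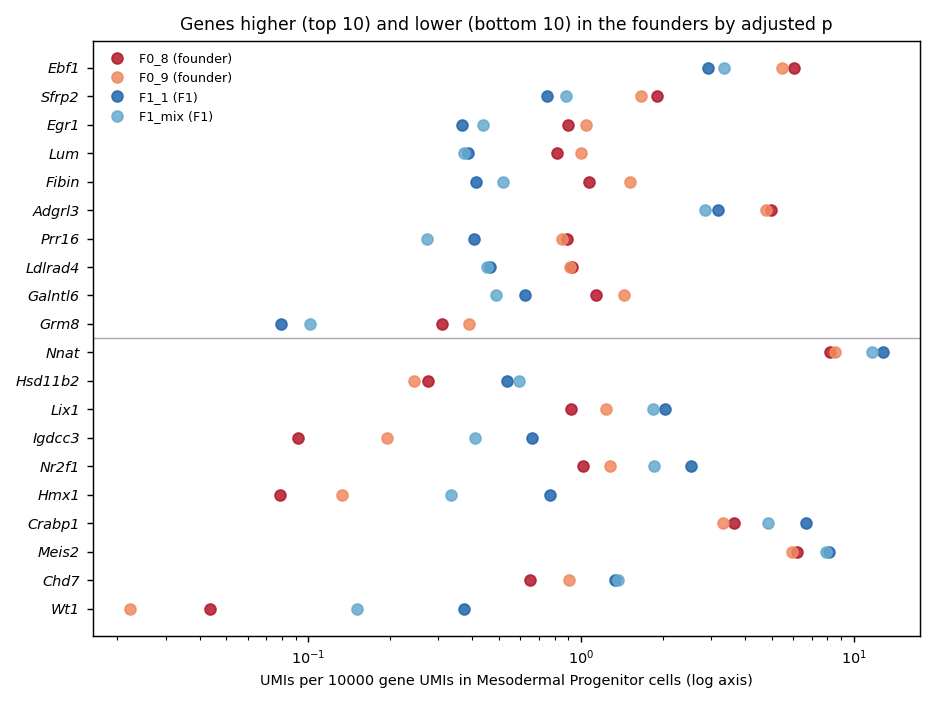
Levels in UMIs per 10000 gene UMIs (log axis) in Mesodermal Progenitor cells of the 10 genes of smallest adjusted p that were higher in founders (above the line) and the 10 that were lower (below it), with 1 point per suspension. In every gene shown both founder points lie on one side of both F1 points, as for Sfrp2 at 1.90 and 1.66 against 0.751 and 0.882.

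Of 26 collagen and matrix genes 2 were called, Lum and Col1a1, both higher in founders, against 1.07% of all genes called in either direction. Ebf1, a transcription factor of mesenchymal and lymphoid precursors, had the smallest adjusted p. Its level was 6.04 and 5.48 per 10000 in F0_8 and F0_9, and 2.93 and 3.34 in F1_1 and F1_mix. The log2 fold change, founders over F1, was 0.87 ± 0.08 (SE), with an adjusted p of 0.00044 by edgeR's quasi-likelihood test, and 0.0569 with the 3 mesenchymal types fitted together, the 1 alternative in which it did not pass. Sfrp2, a secreted modulator of Wnt signalling, was at 1.90 and 1.66 against 0.751 and 0.882 (log2 fold change 1.12, adjusted p = 0.000535, edgeR). Lum, the proteoglycan lumican, was at 0.816 and 0.997 against 0.387 and 0.371 (1.24, adjusted p = 0.00105, edgeR). Fibin, a secreted factor, was at 1.07 and 1.51 against 0.413 and 0.518 (1.45). In each of these genes both founders lay above both F1 suspensions, which adds nothing to the test. Col1a1, the main collagen of bone and dermis, was at 2.76 and 2.04 against 1.6 and 1.14, but it did not pass without F0_8 (0.81, adjusted p = 0.0188 and 0.306, edgeR). Adgrl3, Prr16, Ldlrad4, Galntl6 and Grm8 were the other leading genes, with log2 fold changes of 0.69, 1.36, 1.0, 1.20 and 1.92. Grm8, a glutamate receptor gene, was low in all, at 0.310 and 0.390 against 0.0796 and 0.102.

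Cartilage genes were higher in the founders for 3 of 15 tested, against 0.723% of all genes, and the median log2 fold change of the list was 0.56 against 0.00 for all genes. Col2a1 was at 3.05 and 2.39 against 1.63 and 2.06 (log2 fold change 0.56, adjusted p = 0.0405, edgeR). Col9a2 was at 0.602 and 0.501 against 0.163 and 0.270 (1.34, adjusted p = 0.00625). Col9a3 was at 0.781 and 0.429 against 0.140 and 0.245 (1.65, adjusted p = 0.00848). Col9a2 and Col9a3 encode chains of a collagen that coats cartilage fibrils. Without F0_8 none of the 3 passed (adjusted p = 0.473, 0.0916 and 0.163, edgeR). Sox9, the regulator of these genes, was at 2.58 and 2.51 against 1.66 and 2.16, with an adjusted p of 0.119 that did not pass edgeR's test.

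Egr1 and Fos, genes that respond within minutes to stimuli such as tissue handling, were also higher in founders. Egr1 was at 0.899 and 1.05 per 10000 against 0.368 and 0.438 (log2 fold change 1.25, adjusted p = 0.00105, edgeR), and Fos at 1.53 and 1.32 against 0.948 and 1.0 (0.54, adjusted p = 0.0299). Fos did not pass without F0_8 (adjusted p = 0.332, edgeR). The summed level of the 15 immediate early and heat shock genes was nearly even, from 38.5 to 39.3.

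Among limb and trunk genes 4 of 19 limb bud genes passed, in both directions, against 1.07% of all genes. Pitx1 was at 1.01 and 1.21 per 10000 in the founders against 0.375 and 0.651 (log2 fold change 1.09, adjusted p = 0.012, edgeR). Shox2 was at 1.34 and 1.25 against 0.861 and 0.756 (0.67, adjusted p = 0.00949). Meis1 and Meis2, homeobox genes of the proximal limb and trunk, were lower, with log2 fold changes of -0.44 and -0.41. Meis2 was at 6.20 and 5.92 against 8.08 and 7.89. Hoxd13 was at 0.497 and 0.518 against 0.0796 and 0.221 (1.73, adjusted p = 0.00949), Hoxc8 at 0.768 and 0.462 against 0.341 and 0.263 (1.04, adjusted p = 0.0316), and Hoxa10 at 1.47 and 1.46 against 0.887 and 1.06 (0.58, adjusted p = 0.0219). No HoxB gene passed (0 of 8), although their median log2 fold change was -0.64. Pax9 and Uncx, genes of the sclerotome and the somite, were higher with log2 fold changes of 1.10 and 1.28. None of the limb and Hox genes given here, nor Pax9, passed without F0_8 (adjusted p = 0.05001 for Pitx1 to 0.456 for Hoxc8, edgeR), and Uncx did not pass without F0_9 (adjusted p = 0.307). In cell counts the cells with Tbx4 or Pitx1 and no Tbx5 were 19.1% and 22.9% of the founders' Mesodermal Progenitor cells, and 12.5% and 22.7% of those of F1_1 and F1_mix. Fewer cells of a region and less RNA per cell cannot be told apart in the sums.

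Signalling genes passed in small numbers, to be read against the 1.07% called over all genes. Bmp2, a ligand that acts in limb and cartilage formation, was at 0.266 and 0.206 per 10000 against 0.0682 and 0.0630 (log2 fold change 1.84, adjusted p = 0.00571, edgeR), the only one of 24 BMP and TGF-beta genes. Wnt11 was higher (1.07) and Sfrp1, which sequesters Wnt ligands, lower (-0.61). Fgf18 was higher (2.26), on 20 and 27 UMIs in F0_8 and F0_9 against 9 and 4 in F1_1 and F1_mix. Dusp6, a feedback inhibitor that FGF signalling induces, was lower (-0.68). In the retinoic acid pathway 3 of 14 genes passed. Cyp26b1, which degrades retinoic acid in the distal limb, was higher at 0.467 and 0.523 against 0.281 and 0.277 (0.82, adjusted p = 0.0303, edgeR). Cyp26a1, an enzyme of the same family, was lower at 0.0262 and 0.0390 against 0.171 and 0.112 (-2.13, adjusted p = 0.0249, edgeR). It rested on 6 and 7 UMIs in the founders against 45 and 32. Crabp1, the binding protein, was also lower, at 3.63 and 3.31 against 6.70 and 4.86 (-0.74, adjusted p = 0.00802, edgeR). The transcription factor genes Zeb2 and Tcf4 were higher, at 0.74 and 0.40, and the histone gene H1f5, chosen after its values were seen, was higher at 0.37 (adjusted p = 0.0299). Without F0_8 none of these 11 signalling, transcription factor and histone genes passed (adjusted p = 0.0722 for Crabp1 to 0.473 for Wnt11, edgeR).

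Nnat, an imprinted gene of a small membrane protein, led the lower genes at 8.20 and 8.52 per 10000 in the founders against 12.8 and 11.7 (log2 fold change -0.56, adjusted p = 0.00116, edgeR). The imprinted gene Peg10 was also lower (-0.68), which made 2 of 13 tested, against 0.348% of all genes lower in founders. Hsd11b2, the enzyme that inactivates glucocorticoids, was at 0.275 and 0.245 against 0.535 and 0.595 (-1.12, adjusted p = 0.00459). The nuclear receptor gene Nr2f1 was at 1.02 and 1.28 against 2.53 and 1.85 (-0.95, adjusted p = 0.00615). Lix1, Igdcc3, Hmx1 and Chd7 had log2 fold changes of -0.86, -1.96, -2.41 and -0.82. Wt1, a factor of the kidney and the mesothelium, was at 0.0436 and 0.0223 against 0.371 and 0.151 (-2.92, adjusted p = 0.00949, edgeR). It rested on 10 and 4 UMIs in the founders against 98 and 43, and F1_1 held the highest value. Nnat and Hsd11b2 passed without F0_8, while Peg10, Nr2f1, Lix1, Igdcc3, Hmx1, Chd7 and Wt1 did not (adjusted p = 0.075 for Lix1 to 0.393 for Peg10, edgeR). Markers of other cell types moved with the generation in part. Epithelial markers summed to 0.0916 and 0.10 in the founders against 0.250 and 0.319 in F1, none of 4 at 0, and Krt8, chosen after its values were seen, passed (adjusted p = 0.0400, edgeR), but not without F0_8 (adjusted p = 0.148). The Foxf1, Foxf2, Hand1 and Gata6 sum was 0.449 and 0.579 against 0.868 and 0.914, none of 4 at 0, and none passed. Their part in the lower genes was not tested.

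The same comparison in the neighbouring types called similar shares, with 180 of 11099 genes (1.62%) in Gut Mesenchyme/Amniotic Mesoderm and 106 of 9106 (1.16%) in Chondrocyte. These comparisons came from the same embryos. Of the genes called in Mesodermal Progenitor cells and tested in the other type, 45 of 116 were also called in Gut Mesenchyme/Amniotic Mesoderm (38.8% of those, and 25% of the 180) and 27 of 107 in Chondrocyte (25.2%, and 25.5% of the 106). Among the named genes Ldlrad4 had log2 fold changes of 1.0, 1.24 and 0.81 in Mesodermal Progenitor, Gut Mesenchyme/Amniotic Mesoderm and Chondrocyte, and Col9a3 of 1.65, 1.69 and 2.60. Lum had 1.24, 0.04 and 0.17, and Zeb2 0.74, 0.03 and -0.18. In the test of the difference itself no gene passed. The interaction of cell type and generation called 0 of 11445 genes (0%) against Gut Mesenchyme/Amniotic Mesoderm and 0 of 10673 (0%) against Chondrocyte by edgeR's quasi-likelihood test, with 644 and 761 genes at an unadjusted p under 0.05. For Lum the adjusted p of these tests was 0.21 and 0.084, and for Zeb2 0.17 and 0.33. The zero counts depended on the filter and on single suspensions. Without the low-count filter 139 and 99 genes passed. Without F0_8 53 and 45 genes passed, without F0_9 54 and 36, without F1_1 0 and 74, and without F1_mix 0 and 106.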

How the data were processed

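Single-cell transcripts were measured in 4 suspensions run as 1 droplet library. The authors made the deposited counts, whole UMI counts per gene and cell, with Cell Ranger. The file headers and the study's software list give release 7.2.0, while 1 sentence of the methods names an earlier one. The reads were mapped against GRCm38 (mm10) with EGFP added. The counts are uncorrected, although the methods name SoupX, and the authors removed doublets with DoubletFinder. No further doublet caller was run, and the doublet score deposited by the authors was read as a value. Cell types are the authors' annotation, made after RECODE with EGFP left out. Of the columns that describe cells 6 were used and 16 were not.

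Counts were summed over the cells of a type in a suspension. Gene counts between types used genes with at least 50 UMIs, distances at least 200, log2 ratios a pseudocount of 0.1 per 10000, and cells were thinned to 5000 UMIs. Named genes were the 15 with the largest and 8 with the lowest ratio at a level of at least 0.5, and, between generations, 10 per direction and each called gene of the pathway and tissue lists, without the histone and cell type marker lists. One gene that the rule names is not reported here. Founders and F1 were compared with edgeR 4.0.16 (R 4.3.3; quasi-likelihood test, TMM, filterByExpr, Benjamini-Hochberg threshold 0.05), with DESeq2 1.42.0 as an alternative. Intervals are 95% exact Poisson or binomial intervals, and the limit for a count of 0 is 3 counts. On simulated counts for 10928 genes the founder comparison recovered 66 of 100 2-fold and 97 of 100 4-fold changes, with 8 unchanged genes called. These counts used the dispersions of the same fit and no mixed embryos, and the changed genes had a minimum of UMIs. They cannot show how many calls are false in the real suspensions. Other tools were Python 3.11.15, numpy 2.4.6, scipy 1.17.1, pandas 2.3.3 and matplotlib 3.10.9. The members and gene lists were chosen with earlier results of these data known, and the histone list after levels were seen.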

Additional observations from a re-analysis of the deposited data

How the results depend on the processing

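The counts of called genes moved with the filter, the tool and single suspensions. The 117 genes called between founders and F1 in Mesodermal Progenitor cells became 401 without the low-count filter, 40 with DESeq2's Wald test, 40 with the 3 mesenchymal types fitted together, and 37 to 325 when 1 suspension was left out. With DESeq2's size factors, deeper cells, cells under 5% mitochondrial transcripts or sums thinned to equal depth the counts were 112, 117, 114 and 82. The 180 genes of Gut Mesenchyme/Amniotic Mesoderm became 644 without the filter and 59 to 320 with 1 suspension left out. The 106 of Chondrocyte became 0 (979 at an unadjusted p under 0.05, edgeR) and 57 to 286. The interaction counts of 0 became 139 without the filter and 0 to 54 with 1 suspension left out against Gut Mesenchyme/Amniotic Mesoderm, and 99 and 36 to 106 against Chondrocyte. The cause was not tested. A gene whose founder and F1 values do not overlap cannot reverse when 1 suspension is left out. Of 43 named genes 0 reversed, and 10 passed in every alternative fitted (Adgrl3, Egr1, Fibin, Galntl6, Grm8, Ldlrad4, Lum, Nnat, Prr16 and Sfrp2). With mitochondrial and ribosomal transcripts out of the denominator, EGFP was 13, 11.7, 29.5 and 11.45 in F0_8, F0_9, F1_1 and F1_mix, and as a mean over cells it was 10.1 in F0_9 and 24.9 in F1_1. Thinned to 5000 UMIs, the regional shares were 10.9%, 14.7%, 1.41%, 10.9%, 9.09% and 56.4%. No paired analysis was possible because founders and F1 are different embryos that share no replicate numbers in the labels, whereas the interaction fits had the suspension as a term. Levels of regional genes without each suspension in turn, and the G2 and M phase sum without the ordering genes, were added after seeing the data.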
